A study of Mus musculus with 21 samples.

Results

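Tubulin alpha and beta chains pair into the dimers from which microtubules are built, and mammals encode several isotypes of each chain that differ mainly in where they are expressed. Neurons use a characteristic set, and doublecortin (Dcx) is a microtubule-binding protein of migrating and newly born neurons that stabilizes their microtubules. Tubulin mRNAs are also subject to autoregulation: when free tubulin dimers accumulate, the cell recognizes the start of the nascent chain as it leaves the ribosome and degrades the mRNA being translated, so the amount of ribosome-bound tubulin mRNA is of interest in its own right. The 9 genes examined were the neuronal tubulins Tuba1a, Tubb2a, Tubb2b and Tubb3 together with Dcx, and the more generally expressed tubulins Tuba1b, Tubb4b, Tubb5 and Tubb6. They were taken by their gene symbols from the 23827 rows of the deposited gene tables, where each had a single row with reads in all 21 libraries.

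The libraries were made from E14.5 mouse embryos and fell into 7 groups of 3 biological replicates, each prepared from pooled organs. All embryos were heterozygous for an mCherry-Rpl10a transgene at the ROSA26 locus (Gt(ROSA)26Sor-mCherry-Rpl10a+/-). It derives from a single targeted embryonic stem cell clone and produces mCherry-tagged ribosomes from a ubiquitous promoter once Cre has removed a stop cassette. With Sox2Cre+/-, active in all cells of the embryo proper, total RNA (the transcriptome) and RNA precipitated with the tagged ribosomes (the translatome) were sequenced from the brain, which here means the forebrain with part of the diencephalon, and from the kidney. With Cdh5CreERT2+/-, induced by tamoxifen given to the pregnant female, the translatome of endothelial cells (EC) was obtained from brain and from kidney, and with Emx1Cre+/- that of the Emx1-lineage of the dorsal telencephalon. In such bulk samples fewer cells of a type and less RNA per cell cannot be told apart.

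The libraries held 21760652 to 79231692 reads on genes, lowest in the kidney translatome. Levels are given as RPKM, reads scaled to transcript length and library size, and the replicates of a group are given as the mean ± SD (n = 3) or one by one. Differences are log2 fold changes of the read counts (± SE) from edgeR's quasi-likelihood test, and a gene is said to have risen or fallen only if its Benjamini-Hochberg adjusted p over all rows tested was under 0.001. The cell labels were checked with marker genes: the summed RPKM of 12 endothelial markers was 4079 to 4232 in the brain EC libraries against 218.2 to 244.6 in the brain translatome, and 2721 to 3218 in the kidney EC libraries against 501.6 to 540.5 in the kidney translatome. The 8 dorsal telencephalon markers summed to 1338 to 1405 in the Emx1-lineage and 662.3 to 680.8 in the brain translatome. Neuronal transcripts remained in the brain EC libraries, where 10 pan-neuronal markers summed to 400.5 to 486.2 against 1363 to 1377 in the brain translatome.

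Tubulin coding sequences are so alike that short reads cannot always be assigned to 1 gene, and the opening of each coding sequence shows how alike. The first 30 coding bases of the tubulin mRNAs are shown here 5′ to 3′ (GENCODE vM21 transcripts, GRCm38), with the opening codons, which encode the stretch of nascent chain that autoregulation reads, in capitals. Tubb6 is not shown.
Tuba1a: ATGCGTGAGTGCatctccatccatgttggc
Tuba1b: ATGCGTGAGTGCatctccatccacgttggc
Tubb2a: ATGCGCGAGATCgtgcacatccaggcgggc
Tubb2b: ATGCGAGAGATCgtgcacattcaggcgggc
Tubb3: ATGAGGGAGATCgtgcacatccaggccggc
Tubb4b: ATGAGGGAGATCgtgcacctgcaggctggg
Tubb5: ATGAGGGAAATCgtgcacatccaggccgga

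Tuba1a (chr15:98949837-98953703, minus strand) and Tuba1b (chr15:98931425-98934565, minus strand) lie side by side, and their coding sequences of 1353 bases are 98.3% identical and differ at 23 positions, of which 1 lies in the bases shown (T24C, counted from the A of the start codon, with the Tuba1a base first). Tubb2a (chr13:34074274-34078007, minus strand) and Tubb2b (chr13:34126748-34130354, minus strand) are likewise neighbours, with coding sequences that are 96.5% identical over 1335 bases. Tubb3 (chr8:123411424-123422015, plus strand), Tubb4b (chr2:25222160-25224702, minus strand) and Tubb5 (chr17:35833921-35838306, minus strand) lie alone, each of the 8 tubulin transcripts has 4 exons, and Dcx is on the X chromosome (chrX:143855842-143933311, minus strand). Of all 100-base windows along the Tuba1a transcript, 65.9% occurred without a mismatch in a transcript of at least 1 other gene, among them Tuba1c (34.9%) and Tuba1b (26.3%), and for Tuba1b the share was 73.0%. It was 36.9% for Tubb2a, 27.8% for Tubb2b and 30.6% for Tubb4b, but 0% for Tubb3, Tubb5, Tubb6 and Dcx. In 50-base windows it was 0% for Tubb3 and Tubb6, 0.115% for Tubb5, 0.288% for Dcx and 39.3% to 83.1% for the others. By exact matches, Tubb3, Tubb5, Tubb6 and Dcx thus consist almost wholly of sequence of their own, and matches with mismatches were not examined. How the reads of the others were divided between near-identical copies depends on the authors' mapping, and the low level listed for Tuba1b in particular is uncertain.

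In the brain transcriptome the tubulins were among the most abundant mRNAs: by mean RPKM, Tubb5 ranked 3rd, Tuba1a 4th, Tubb3 7th and Tubb2b 12th of the 23827 rows. Tuba1a, the main alpha-tubulin of young neurons, reached 1382, 1560 and 1536 RPKM in the 3 brain transcriptome libraries and 105, 96.2 and 91.4 RPKM in those of kidney. Tubb3, the beta-tubulin used as a marker of neuronal differentiation, was at 1039, 1107 and 1073 RPKM in the brain transcriptome and at 0.548, 0.373 and 0.466 RPKM, or 48, 26 and 25 reads, in the kidney transcriptome. Brain and kidney libraries did not overlap for either gene.

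Tubb2b, which is highly expressed in migrating neurons, stood at 740.5 ± 35.3 RPKM in the brain and 28.7 ± 3.20 RPKM in the kidney transcriptome, and its neighbour Tubb2a at 212 ± 12.9 and 12.4 ± 0.733 RPKM. Dcx had 209 ± 10.7 RPKM in brain and 6.29 ± 1.47 RPKM in kidney. Dcx was thus clearly present in the kidney, with 1322 to 2980 reads per transcriptome library, where Tubb3 was barely detected. The ratio of Dcx to Tubb3 in RPKM was 0.196 ± 0.0162 in the brain transcriptome and 14.1 ± 5.46 in the kidney transcriptome. In the same kidney libraries the 8 markers of peripheral neurons and Schwann cells summed to 2.46 to 3.39 RPKM and the 10 pan-neuronal markers to 67.1 to 70.9 RPKM, most of it Ncam1 (53.2, 54.0 and 54.1 RPKM), a cell adhesion molecule. Their part in the kidney Dcx level was not tested.

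The general tubulins followed another order. Tubb5, the most widely expressed beta-tubulin, was high in both organs, with 1636 ± 58.3 RPKM in the brain and 1057 ± 28.8 RPKM in the kidney transcriptome. Tuba1b was lower in brain, at 57.5 ± 2.86 RPKM against 94.3 ± 3.13 RPKM in kidney, and Tubb4b was at 54.8 ± 2.28 against 91.9 ± 5.39 RPKM. Tubb6 had 9.38, 10.8 and 9.06 RPKM in the brain libraries and 48.1, 50.7 and 46.8 RPKM in those of kidney. Brain and kidney libraries did not overlap for any of these genes. The share of all rows without overlap was not computed, here or in any other comparison.

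**Figure D1:**
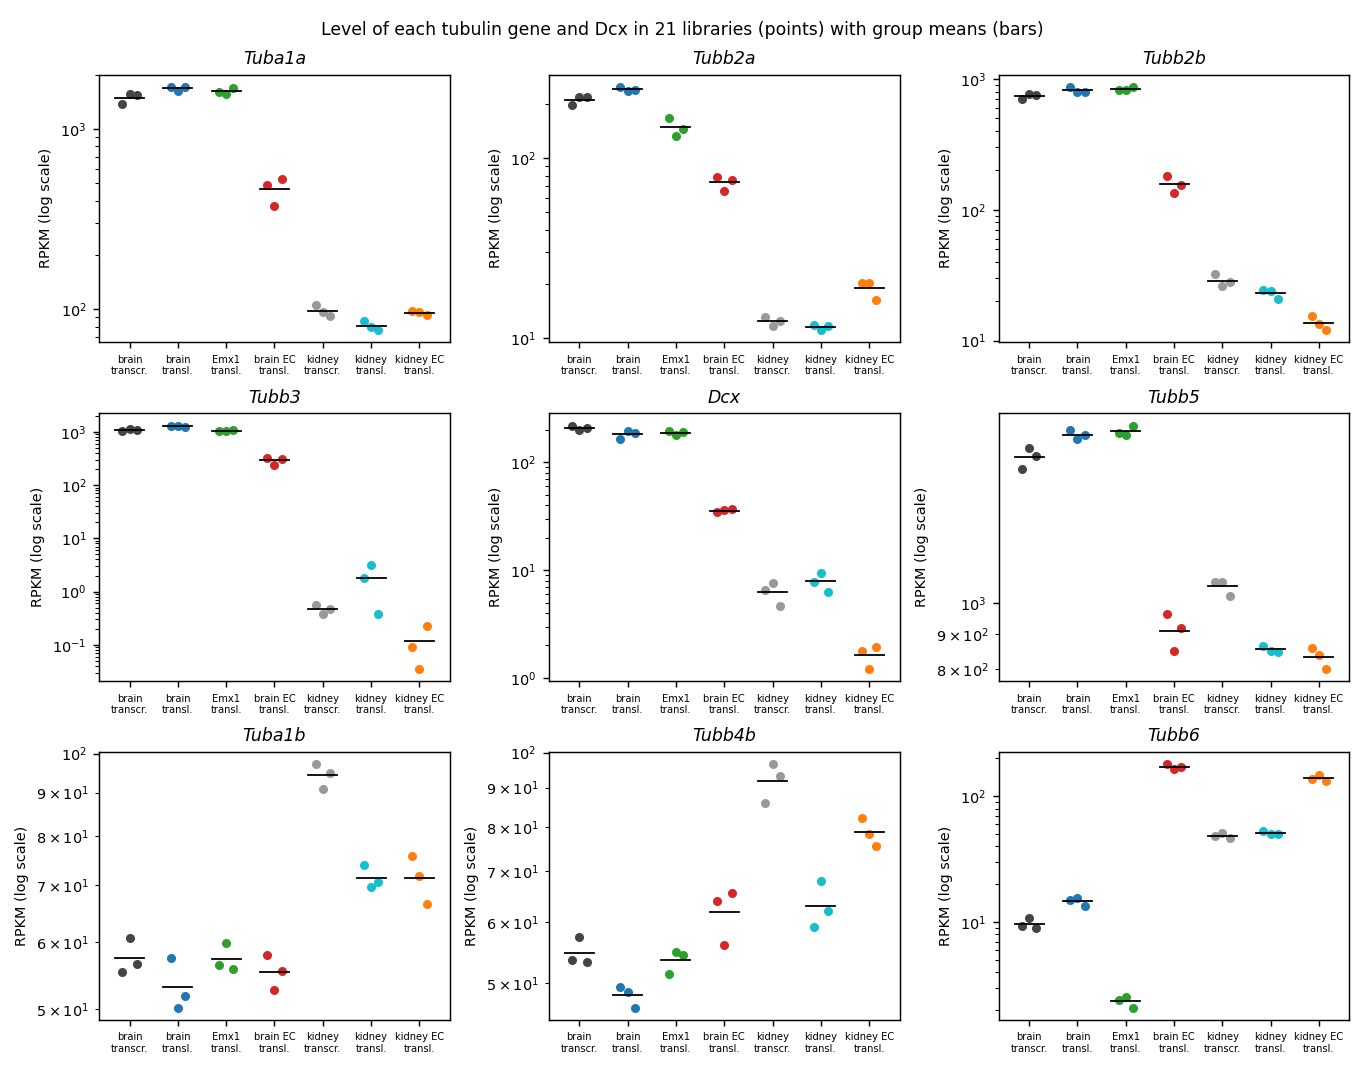
RPKM (log scale, a separate range in each panel) of the 9 genes in every library (points) with the mean of each group of 3 (bars); transcr., transcriptome; transl., translatome. Tuba1a, Tubb2a, Tubb2b, Tubb3 and Dcx share a pattern with 3 high brain groups, an intermediate brain EC group and low kidney groups. Tubb5, Tuba1b and Tubb4b each span a narrow range, and Tubb6 is highest in the 2 EC groups and lowest in the Emx1-lineage at 2.36 RPKM.

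Fitted on the counts, all 9 genes differed between the transcriptomes of brain and kidney, 6 of them higher in brain and 3 lower, in a comparison in which 27.2% of all 19841 rows tested were called higher and 26.3% lower. The median log2 fold change of the 9 genes was 4.12, against -0.02 for all rows. The differences were 11.35 ± 0.14 for Tubb3, 5.24 ± 0.17 for Dcx, 4.87 ± 0.10 for Tubb2b, 4.28 ± 0.06 for Tubb2a and 4.12 ± 0.10 for Tuba1a, all at adjusted p values of 3.58e-10 or less. Tubb5 was higher in brain by 0.82 ± 0.10 (adjusted p = 2.41e-05). Tuba1b (-0.53 ± 0.04), Tubb4b (-0.56 ± 0.05) and Tubb6 (-2.13 ± 0.07) were lower in brain.

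Between the translatomes of the organs, with 27.2% of 19241 rows called higher in brain and 26.2% lower, 6 of the 9 genes were higher and only Tubb6 was lower (-1.60 ± 0.07, adjusted p = 6.55e-11). Tuba1a differed by 4.58 ± 0.09 and Tubb2b by 5.35 ± 0.09. Tuba1b (-0.22 ± 0.06, adjusted p = 0.00531) and Tubb4b (-0.19 ± 0.06, adjusted p = 0.0143) were not called, although their samples did not overlap. Scaling by total counts in place of TMM factors (trimmed mean of M values) moved the median of all rows between the organs by -0.18 in the transcriptomes and -0.19 in the translatomes, and both of these genes were then called lower in brain. It left the directions of all 9 genes as they were.

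The make-up of the beta-tubulin pool was described by the share of each gene in the summed RPKM of the 6 beta-tubulins, a measure that does not depend on how libraries are scaled to each other. Tubb5 made up 43.9 ± 0.118% of it in the brain transcriptome and 85.3 ± 0.333% in the kidney transcriptome. Tubb3 supplied 28.8 ± 0.220% in brain and 0.0373 ± 0.00709% in kidney, and Tubb2b 19.9 ± 0.210% and 2.32 ± 0.250%. The brain pool was thus shared by 3 genes, whereas in kidney Tubb5 was followed by Tubb4b with 7.42 ± 0.495% and Tubb6 with 3.91 ± 0.103%. Of the summed RPKM of Tuba1a and Tuba1b, Tuba1a gave 96.3 ± 0.151% in brain and 50.8 ± 1.51% in kidney. With the reservation on shared sequence, the sum of Tuba1a and Tuba1b over that of the 6 beta-tubulins was 0.416 ± 0.0121 in the brain transcriptome. It was 0.155 ± 0.00615 in the kidney transcriptome. Other tubulin genes, among them Tuba1c and Tubb4a, were in neither sum. The ratio is thus not that of all alpha- to all beta-tubulin mRNA.

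**Figure D2:**
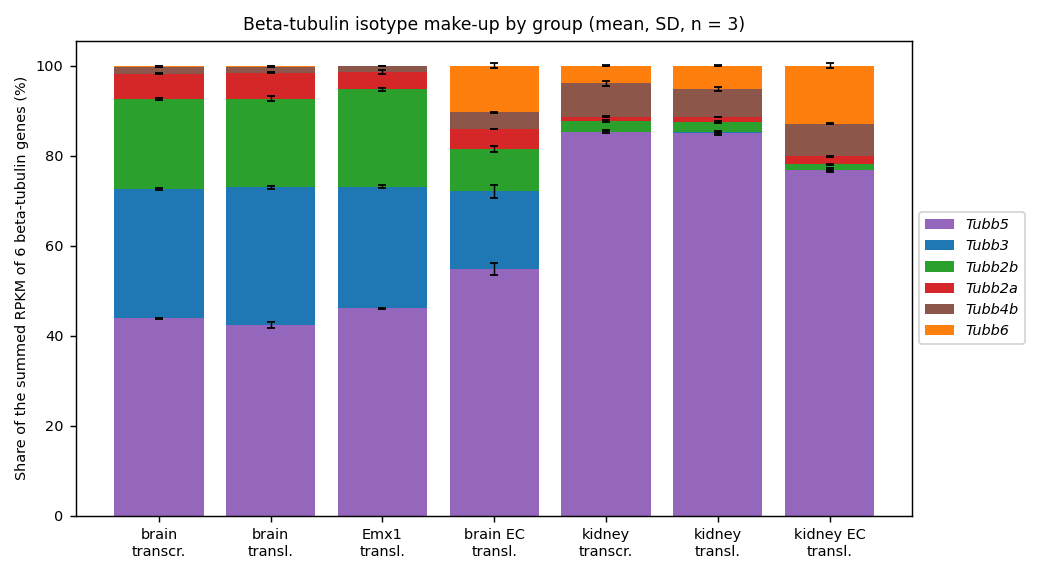
Share of each of 6 beta-tubulin genes in their summed RPKM, in percent, as stacked group means with the SD of 3 libraries as error bars; transcr., transcriptome; transl., translatome. Tubb5 makes up 42.4% to 46.1% in the brain transcriptome, the brain translatome and the Emx1-lineage and 76.9% to 85.3% in the kidney groups, and the Tubb6 share is largest in the EC groups at 10.4% and 12.8%.

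Whether tubulin mRNAs were bound by ribosomes in proportion to their abundance was asked by comparing the translatome with the transcriptome of the same organ. The study could not fully exclude that such differences come partly from the method, for example from unequal levels of the tagged protein between cell types. The part of such biases here was not tested. In the brain the differences were small. Tubb3 rose from the transcriptome values given above to 1311, 1268 and 1240 RPKM in the translatome, a log2 difference of 0.28 ± 0.06 (adjusted p = 0.000781). Tubb6 rose from 9.38, 10.8 and 9.06 to 15.1, 15.6 and 13.5 RPKM, by 0.62 ± 0.09 (adjusted p = 2.18e-05). For both genes every translatome library lay above every transcriptome library.

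These were the 2 of 9 genes called higher, in a comparison that called 18.6% of 19446 rows higher and 18.5% lower, and edgeR called none of the 9 lower. At an unadjusted p under 0.05, 6 were higher and 2 lower. The share of all rows at that unadjusted threshold was not computed, here or in the comparisons below. DESeq2 likewise called 2 higher and none lower, where it called 3828 of 19446 rows higher and 4006 lower. Tuba1a (0.21 ± 0.06), Tubb2a (0.22 ± 0.06), Tubb2b (0.17 ± 0.06) and Tubb5 (0.14 ± 0.06) had positive values that did not pass the threshold. Dcx (-0.16 ± 0.07), Tubb4b (-0.16 ± 0.05) and Tuba1b (-0.08 ± 0.06) had negative ones. The smallest adjusted p among these 7 genes was 0.00606, for Tubb2a.

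The call of Tubb3 was close to the threshold. It was lost when any 1 of the 6 libraries was left out (log2 fold change 0.22 to 0.29) and with the sequencing lane in the fit (0.33, adjusted p = 0.00305), the lanes being confounded with the groups except for 1 transcriptome library run together with the translatome libraries. Libraries of both kinds with the same replicate number came from the same tissue sample, and with that pairing in the fit Tubb3 (adjusted p = 1.88e-05) and Tubb6 (adjusted p = 6.70e-09) stayed above the threshold and Tuba1a was added (0.21, adjusted p = 0.000847). The call of Tubb6 held in all these settings. The endothelial markers summed to 134.7 to 170.7 RPKM in the brain transcriptome and 218.2 to 244.6 RPKM in the brain translatome, and their part in the difference of Tubb6 was not tested.

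Within a library, the RPKM ratio of Tubb3 to Tubb5 was 0.656 ± 0.00329 in the brain transcriptome and 0.721 ± 0.0155 in the brain translatome, without overlap. The exact two-sided permutation test gave p = 0.10, the smallest value that 3 against 3 samples allow, and the same p after adjustment over the 3 comparisons of this ratio. Tubb3 made up 30.6 ± 0.293% of the beta-tubulin pool of the brain translatome and Tubb5 42.4 ± 0.653%. The ratio of Dcx to Tubb3 was 0.144 ± 0.0153 in the translatome, below that of the transcriptome in every library.

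In the kidney 2 general tubulins fell in the translatome and no gene of the 9 passed as higher in edgeR, in a comparison that called 14.9% of 19336 rows higher and 15.8% lower. At an unadjusted p under 0.05, 1 gene was higher and 5 were lower. DESeq2 called 1 higher, Tubb3, and 4 lower, where it called 3509 of 19336 rows higher and 3512 lower. Tubb4b went from 86.0, 96.5 and 93.2 RPKM to 59.1, 68.0 and 62.2 RPKM, a fall by 0.54 ± 0.06 on the log2 scale (adjusted p = 1.88e-05). Tuba1b went from 97.1, 90.9 and 94.8 RPKM to 73.9, 69.7 and 70.5 RPKM, a fall by 0.40 ± 0.04 (adjusted p = 1.70e-05). The groups did not overlap for either gene.

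Tubb5 went from 1057 ± 28.8 to 854 ± 10.1 RPKM, without overlap, and its fitted difference of -0.31 ± 0.07 did not pass (adjusted p = 0.00513). Tuba1a (-0.27 ± 0.06, adjusted p = 0.00324) and Tubb2b (-0.32 ± 0.09, adjusted p = 0.0110) behaved likewise. With the pairing of tissue samples in the fit, which raised the calls over all rows from 2880 to 4636 higher and from 3049 to 4860 lower, these 3 genes passed as lower and Tubb3 and Dcx as higher. In that fit edgeR estimated an infinite number of prior degrees of freedom, so that all genes were given the same trended spread. With sequencing lane in the fit the difference was -0.41 for Tuba1b and -0.56 for Tubb4b. These values rest on translatome replicate 3 alone, the only translatome library that shared a lane with the kidney transcriptomes.

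The kidney translatome values of Tubb3 differed between libraries run in different lanes, a split of 2 libraries against 1. The translatome libraries had 1.80, 3.22 and 0.375 RPKM, from 76, 131 and 14 reads, against 0.373 to 0.548 RPKM in the transcriptome. Translatome replicates 1 and 2 were sequenced in a lane together with 2 brain transcriptome libraries, whereas replicate 3 shared its lane with the kidney transcriptomes. The fitted difference was 1.96 ± 0.55 (adjusted p = 0.0128) over all libraries. With lane as a term the fitted difference was -0.30, resting on replicate 3 alone of the translatome libraries. Without translatome replicate 3 it was 2.42 and was called (adjusted p = 0.000149), as it was by DESeq2 over all libraries (1.97, adjusted p = 0.000918).

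Some neuronal markers were higher in the same 2 libraries and others were not, and their part in the Tubb3 values was not tested. Those named here were chosen from the marker lists after their values were seen. Neurod6, a transcription factor of cortical neurons, was listed at 0.399, 0.394 and 0.0214 RPKM in the 3 kidney translatome libraries and at 0 in all 3 transcriptome libraries. Elavl3, a pan-neuronal RNA-binding protein, had 0.244, 0.573 and 0.101 RPKM against 0.0831 to 0.113 RPKM. Rbfox3, a splicing factor of mature neurons, had 0.260, 0.327 and 0.353 RPKM in the kidney translatome and the RNA-binding protein gene Elavl4 had 3.86, 4.01 and 3.97 RPKM, without a low value in replicate 3. Nefl, a neurofilament subunit, was lowest in replicate 3 of both the translatome (3.54, 3.73 and 1.82 RPKM) and the transcriptome (3.21, 3.58 and 1.96 RPKM).

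Dcx had 7.84, 9.51 and 6.22 RPKM in the translatome and 6.59, 7.59 and 4.69 RPKM in the transcriptome, so that replicate 3 was the lowest in both groups and each translatome value was above the transcriptome value of its number. Its difference was 0.33 ± 0.17 (adjusted p = 0.146), and -0.02 with lane in an unpaired fit, which again rests on translatome replicate 3 alone. Both genes had reads in both lanes, with Tubb3 above 1 RPKM only in the lane with brain libraries. The source of either signal was not tested.

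**Figure D3:**
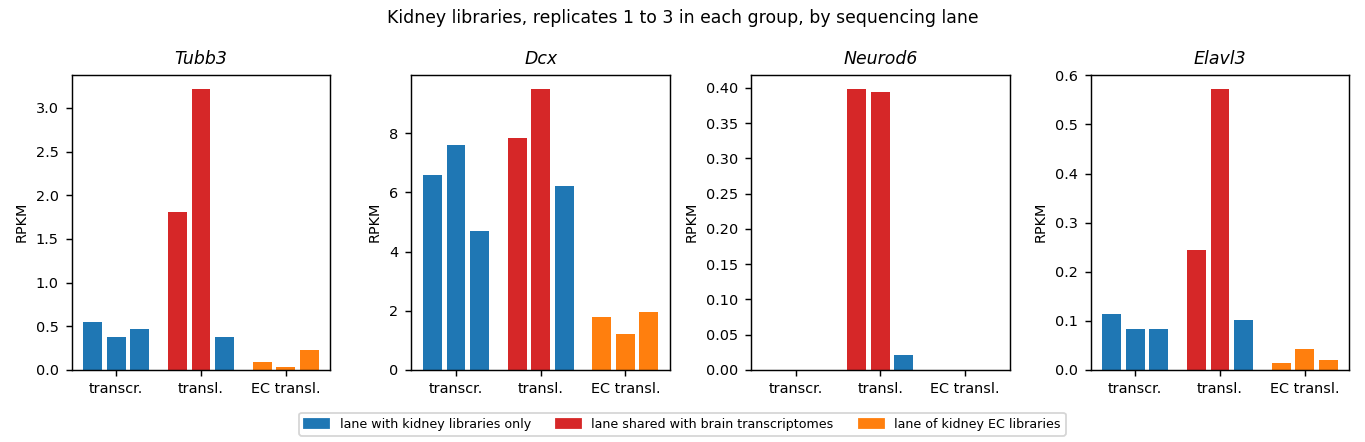
RPKM of Tubb3, Dcx, Neurod6 and Elavl3 in the 9 kidney libraries (bars, replicates 1 to 3 from left to right in each group), coloured by sequencing lane. The 2 translatome libraries run in a lane with brain transcriptomes hold 1.80 and 3.22 RPKM of Tubb3 against at most 0.548 RPKM in the other kidney libraries, and Dcx reaches at least 4.69 RPKM in all transcriptome and translatome libraries of kidney.

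The difference between brain and kidney in the translatome to transcriptome change was tested as an interaction over 12 libraries, a test that called 2.35% of 20108 rows higher and 4.12% lower. In edgeR's unpaired fit all 9 had an unadjusted p under 0.05 (7 higher, 2 lower), a count for which no share over all rows was computed. No gene of the 9 passed in that fit, and the nearest to the threshold was Tubb6 (0.52 ± 0.10, adjusted p = 0.00105). Tubb5 (0.43 ± 0.11, adjusted p = 0.00802) and Tuba1a (0.46 ± 0.11, adjusted p = 0.00780) had values of similar size. With the pairing of tissue samples as a block, 5 genes passed as higher in brain relative to kidney: Tubb6 (0.52, adjusted p = 1.85e-06), Tubb2b (0.47, adjusted p = 1.15e-05), Tuba1a (0.46, adjusted p = 2.13e-06), Tubb5 (0.43, adjusted p = 2.28e-06) and Tubb4b (0.37, adjusted p = 3.37e-05). Tubb3 (-1.72) and Dcx (-0.51) passed in the other direction in the paired fit. That fit made more calls over all rows, with 1467 of 20108 higher and 1978 lower against 472 and 829 in the unpaired fit. DESeq2 without pairing called 5 of the 9 genes higher and none lower, beside 1128 higher and 1581 lower over all rows. Without kidney translatome replicate 3 the unpaired fit called Tubb3 lower (-2.16, adjusted p = 3.53e-05), and without brain transcriptome replicate 2 or brain translatome replicate 3 it called Tubb6 higher. No interaction fit held a lane term, so the part of the sequencing lane in these differences was not tested.

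The other genes of the microtubule system were followed in lists. Their counts stand against 18.6% of all rows called higher and 18.5% lower in brain, and 14.9% and 15.8% in kidney, and nothing particular to a list was tested. Of 23 microtubule-associated proteins, 5 rose and 6 fell in the brain translatome, with a median log2 difference of 0.01 against -0.01 over all rows and 0.17 over the 9 genes. Stmn1, a stathmin that binds free tubulin dimers, rose by 0.84 ± 0.05 (268 against 153 RPKM) and its relative Stmn3 by 0.74 ± 0.07. Map1b and Map1a, long mRNAs for neuronal microtubule-binding proteins, fell by 1.56 ± 0.08 and by 1.34 ± 0.06. In the kidney 4 rose and 4 fell, with Ndel1 rising by 0.57 ± 0.05 and Map4 falling by 1.31 ± 0.05.

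Of the tubulin folding genes, 20 of 21 were tested: 9 rose and 5 fell in brain (median -0.08), and 6 rose and 10 fell in kidney, where the median was -0.26 against -0.03 over all rows and -0.27 over the 9 genes. Tbca, a cofactor that holds folded beta-tubulin, rose from 82.1 to 222 RPKM in brain (1.47 ± 0.06) and from 86.1 to 191 RPKM in kidney (1.15 ± 0.05). Pfdn2, a subunit of prefoldin, rose by 1.35 ± 0.06 in brain. Tbce, which acts on alpha-tubulin, fell by 1.03 ± 0.11 in brain and by 1.00 ± 0.09 in kidney. Cct6a, a subunit of the chaperonin that folds tubulin and actin, fell by 0.71 ± 0.04 in kidney.

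Of the 12 other tubulin genes, 2 rose and 1 fell in the brain translatome, and 2 fell in the kidney translatome. Tubg2 and Tubg1, the gamma-tubulins that nucleate microtubules, rose in brain by 0.96 ± 0.08 and 0.42 ± 0.05, and Tube1 (epsilon-tubulin) fell by 0.73 ± 0.10 in brain and by 0.61 ± 0.08 in kidney. Of 21 genes for tubulin modification and autoregulation, 8 rose and 3 fell in brain, and 5 rose and 4 fell in kidney. Tpgs2, a subunit of the polyglutamylase complex, rose by 0.60 ± 0.04 in brain and by 0.61 ± 0.06 in kidney. Ttll4, a glutamylase, fell by 0.81 ± 0.08 in brain and by 0.80 ± 0.06 in kidney.

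**Figure D4:**
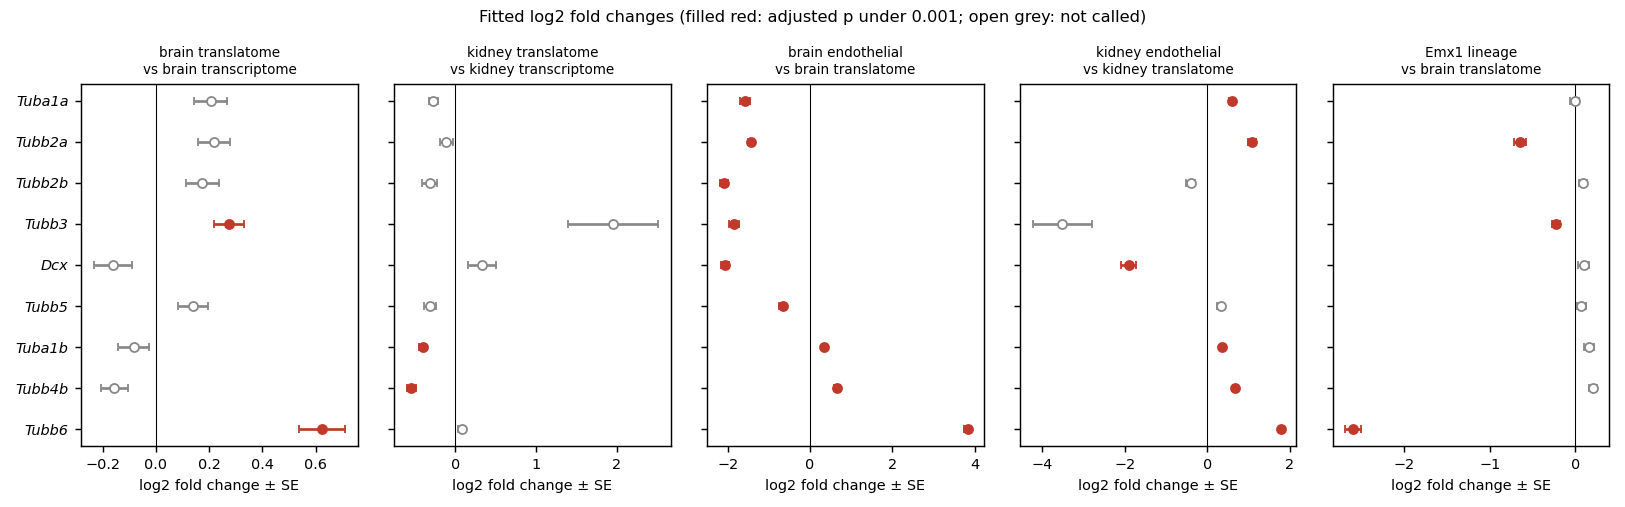
Fitted log2 fold change ± SE of the 9 genes in 5 comparisons, each panel with its own range on the horizontal axis; filled red points passed an adjusted p of 0.001 and open grey points did not. The neuronal tubulins and Dcx lie at -2.09 to -1.43 in the brain EC translatome, and Tubb6 is at 3.83 in brain EC, 1.79 in kidney EC and -2.60 in the Emx1-lineage.

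Brain endothelial cells were compared with the translatome of the whole brain. Tubb6 showed the largest change of the 9 genes, from 15.1, 15.6 and 13.5 RPKM in the brain translatome to 179, 166 and 172 RPKM in the brain EC translatome, 3.83 ± 0.08 on the log2 scale (adjusted p = 6.00e-13). Every EC library lay far above every library of the whole brain. Tubb4b rose by 0.65 ± 0.07 (adjusted p = 3.24e-06) and Tuba1b by 0.35 ± 0.07 (adjusted p = 0.000654).

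The neuronal tubulins and Dcx all fell. Tubb3 was at 324, 236 and 309 RPKM in the brain EC libraries, lower than in the brain translatome by a log2 fold change of -1.85 ± 0.11. Tuba1a was at 490.5, 373 and 527 RPKM against 1718, 1635 and 1707 RPKM (-1.58 ± 0.12). No library of one group reached the range of the other for either gene. Tubb2b (-2.09 ± 0.11), Dcx (-2.07 ± 0.09) and Tubb2a (-1.43 ± 0.08) fell too, and so did Tubb5 (-0.67 ± 0.09, adjusted p = 2.16e-05).

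In all, 3 of the 9 genes rose and 6 fell, where 24.8% of the 19103 rows tested were called higher and 21.4% lower. Scaling by total counts moved the median of all rows by -0.30 and the share of calls that were higher from 53.7% to 36.1%. The rise of Tuba1b was then 0.05 (adjusted p = 0.540) and no longer called, it was also lost without any of 5 of the 6 libraries (0.30 to 0.41), and its RPKM overlapped between the groups (52.7 to 58.0 in brain EC, 50.2 to 57.4 in the brain translatome). The other 8 genes kept their directions and calls under that scaling.

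The level that remained in the brain EC translatome was close for the neuronal genes: 19.2% of the brain translatome RPKM for Tubb2b, 19.5% for Dcx, 22.8% for Tubb3, 27.5% for Tuba1a and 30.3% for Tubb2a. Markers of other brain cells ranged more widely: the 10 pan-neuronal markers from 10.7% (Gap43) to 168% (Nefm) with a median of 33.7%, the 8 dorsal telencephalon markers from 10.4% to 27.8% with a median of 20.8%, and the 8 ventral telencephalon markers from 12.3% to 38.4% with a median of 20.3%. No neuronal marker of these lists was without reads in the brain EC libraries. Their part in the neuronal tubulin signal of the brain EC translatome was not tested. Tubb5 remained at 51.5%, Tuba1b at 104% and Tubb4b at 128%.

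The isotype make-up moved with these changes. In the brain EC translatome Tubb5 made up 54.8 ± 1.37% of the beta-tubulin RPKM, Tubb3 17.3 ± 1.44%, Tubb6 10.4 ± 0.535% and Tubb2b 9.42 ± 0.671%. In the brain translatome Tubb6 had made up 0.354 ± 0.0250%. The ratio of Tubb3 to Tubb5 was 0.317 ± 0.0337 in brain EC against 0.721 ± 0.0155, without overlap (exact two-sided permutation test, p = 0.10, the smallest possible). The summed RPKM of the 6 beta-tubulins was 1664 ± 144 in brain EC and 4163 ± 111 in the brain translatome.

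**Figure D5:**
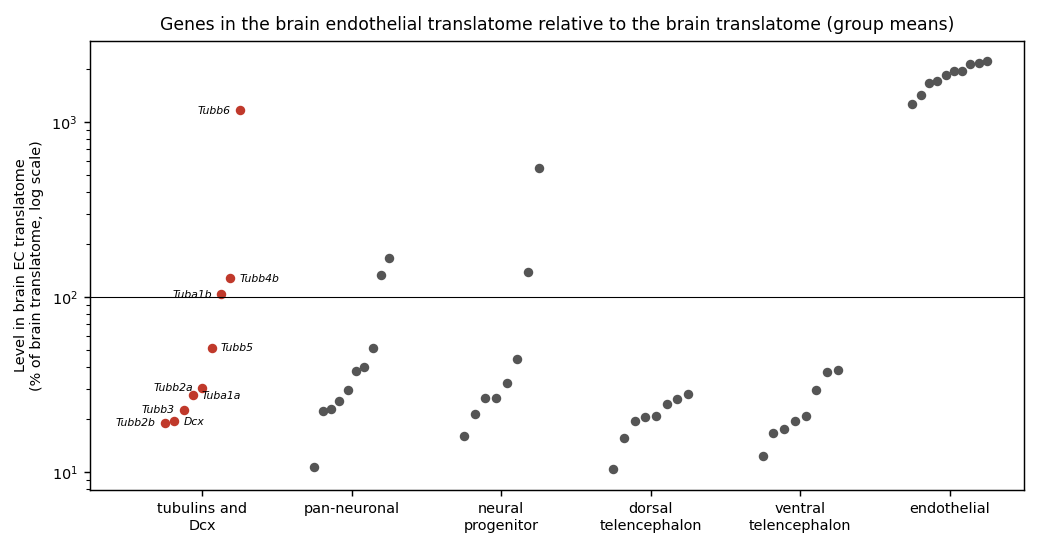
Mean RPKM in the brain EC translatome as a percentage of that in the brain translatome (log scale, line at 100%) for the 9 genes (red, named) and for marker genes of other cell types (grey, 1 point per gene with at least 5 RPKM in the brain translatome). The neuronal tubulins and Dcx lie between 19.2% and 30.3%, ventral telencephalon markers between 12.3% and 38.4%, and Tubb6 is at 1167%, below the lowest endothelial marker at 1272%.

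Other microtubule genes are given for the same comparison, which called 24.8% of all rows higher and 21.4% lower. Of 23 microtubule-associated proteins 3 rose and 13 fell in brain EC (median -0.92), with Map7 rising from 1.72 to 12.7 RPKM (3.18 ± 0.10) and Stmn3 falling from 501 to 54.5 RPKM (-2.91 ± 0.12). Of 20 folding genes 1 rose and 8 fell, led by Pfdn2 (-1.17 ± 0.07). Of 21 modification genes 2 rose and 10 fell. Vash1, the vasohibin tubulin carboxypeptidase first known from endothelial cells, rose from 95.1 to 142 RPKM (0.87 ± 0.14), and Atat1, the alpha-tubulin acetyltransferase, fell from 253 to 24.1 RPKM (-3.13 ± 0.07).

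Kidney endothelial cells were compared with the kidney translatome in the same way. Tubb6 again rose most among the 9 genes, from 52.9, 50.6 and 50.6 RPKM to 138, 147 and 132 RPKM (1.79 ± 0.06, adjusted p = 1.66e-09). Tubb2a rose from 11.9, 11.1 and 11.6 RPKM to 20.3, 20.2 and 16.3 RPKM (1.07 ± 0.10, adjusted p = 3.39e-06). Dcx fell from 7.84, 9.51 and 6.22 RPKM to 1.79, 1.22 and 1.94 RPKM (-1.91 ± 0.18, adjusted p = 5.85e-06). The groups were separate for all 3 genes.

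Tubb4b (0.68 ± 0.06), Tuba1a (0.59 ± 0.06) and Tuba1b (0.35 ± 0.06) were called higher as well, which made 5 genes higher and 1 lower of 9, where 16.7% of 18940 rows were called higher and 15.0% lower. These smaller changes depended on the scaling. With total counts the median of all rows moved by -0.37, the share of calls that were higher fell from 52.7% to 21.7%, and Tuba1a (0.22), Tubb4b (0.31) and Tuba1b (-0.01) were not called. Tubb2b (-0.78) and Tubb3 (-3.88) were then called lower, and Tubb6 (1.42), Tubb2a (0.70) and Dcx (-2.28) kept their calls. Tuba1b also lost its call without any of 5 of the 6 libraries (0.31 to 0.40). Tubb5 had 832 ± 29.9 RPKM in kidney EC and 854 ± 10.1 RPKM in the kidney translatome, and a fitted difference of 0.32 ± 0.08 (adjusted p = 0.00476) that was -0.05 with total counts.

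Dcx remained at 21.0% of its kidney translatome level in kidney EC, and the 8 kidney markers, of nephron, ureteric and stromal cells, at a median of 19.9%. Of the pan-neuronal markers, Ncam1 remained at 26.3% and Gap43 stood at 531%. In which cells the kidney Dcx signal arose was not tested. Tubb3 had 7, 2 and 16 reads in the kidney EC libraries, and its difference (-3.51 ± 0.72, adjusted p = 0.00164) was not called. It was called without kidney translatome replicate 3 (-4.36). Tubb6 made up 12.8 ± 0.538% of the beta-tubulin RPKM in kidney EC, against 5.11 ± 0.0917% in the kidney translatome, and Tubb5 76.9 ± 0.438% against 85.0 ± 0.484%. Of 21 modification genes 3 rose and 4 fell, where 16.7% of all rows were called higher and 15.0% lower. Among them Vash1 rose here too, from 28.9 to 95.8 RPKM (2.08 ± 0.08). Of the 12 other tubulin genes 1 rose, the gamma-tubulin gene Tubg1 (0.48 ± 0.07), and 2 fell.

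The 2 endothelial translatomes were then compared with each other. Tubb5 was at 962, 849 and 919 RPKM in brain EC and 859, 837 and 799.9 RPKM in kidney EC, overlapping ranges with a difference of 0.17 ± 0.08 (adjusted p = 0.0893) that was called in the fit of all 21 libraries (0.29, adjusted p = 0.000433). Tubb6 was higher in brain EC by 0.35 ± 0.07 (adjusted p = 0.000874), a call that was lost with replicates of equal number as a block (adjusted p = 0.00183), with total counts (0.32) and when any 1 library was left out (0.33 to 0.39). Tuba1b (-0.32 ± 0.07, adjusted p = 0.00224) and Tubb4b (-0.30 ± 0.07, adjusted p = 0.00489) were not called.

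All 5 neuronal genes were higher in brain EC: Tubb3 by 11.23 ± 0.27, Dcx by 4.48 ± 0.16, Tubb2b by 3.58 ± 0.13, Tuba1a by 2.32 ± 0.12 and Tubb2a by 2.00 ± 0.10. That made 6 genes higher and none lower of the 9 in edgeR, where 20.1% of 19238 rows were called higher and 16.9% lower. At an unadjusted p under 0.05, 6 genes were higher and 2 lower. DESeq2 called 1 of these 2, Tuba1b, lower, where it called 4450 of 19238 rows higher and 4046 lower. Each EC group and the Emx1-lineage were sequenced in a lane of their own, so that lane and group cannot be told apart for them. The pan-neuronal markers summed to 400.5 to 486.2 RPKM in brain EC and 53.6 to 61.7 RPKM in kidney EC, and the ventral telencephalon markers to 64.4 to 66.3 and 14.8 to 18.4 RPKM. In kidney EC most of the first sum was Gap43 (36.4, 46.7 and 41.1 RPKM) with Ncam1 next, and nearly all of the second was Lhx6 (16.1, 18.1 and 14.3 RPKM). The part of such transcripts in these differences was not tested.

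The Emx1-lineage holds the cells of the dorsal telencephalon that give rise to cortical projection neurons and glia, and its translatome was compared with that of the whole brain. Tubb6 fell from 15.1, 15.6 and 13.5 RPKM to 2.41, 2.57 and 2.10 RPKM (-2.60 ± 0.09, adjusted p = 1.35e-11). Tubb2a fell from 250.0, 237 and 238 RPKM to 168, 132 and 145.4 RPKM (-0.65 ± 0.07, adjusted p = 2.60e-06). Tubb3 went from 1311, 1268 and 1240 RPKM to 1040, 1047 and 1066 RPKM (-0.22 ± 0.05). The groups did not overlap for these genes.

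The adjusted p of Tubb3 was 0.0009997, just under the threshold, and the call was lost when any 1 library was left out (-0.24 to -0.20). In edgeR no gene of the 9 rose and 3 fell, where 9.2% of 19006 rows were called higher and 12.8% lower. At an unadjusted p under 0.05, 2 genes were higher and 3 lower. DESeq2 called none of the 9 higher, where it called 2181 of 19006 rows higher and 2737 lower. Total counts moved the share of calls that were higher from 41.7% to 29.9%. Tuba1a (-0.01 ± 0.05), Tubb2b (0.09 ± 0.05), Dcx (0.10 ± 0.06) and Tubb5 (0.07 ± 0.05) were not called, and their samples overlapped between the groups.

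The markers of cells outside the lineage fell with Tubb6: the 12 endothelial markers summed to 20.8 to 24.5 RPKM in the Emx1-lineage against 218.2 to 244.6, the 4 mural markers to 5.33 to 5.98 against 35.8 to 47.9 and the 4 microglial markers to 1.24 to 1.67 against 23.3 to 25.1. The ventral telencephalon markers summed to 66.1 to 72.3 RPKM against 285.5 to 308.8, beside the fall of Tubb2a. The part of these cells in the 2 results was not tested. Tubb5 (46.1 ± 0.0908%), Tubb3 (27.1 ± 0.254%) and Tubb2b (21.6 ± 0.406%) again made up nearly all of the beta-tubulin RPKM, and Tubb6 0.0609 ± 0.00720%. The ratio of Tubb3 to Tubb5 was 0.588 ± 0.00440 against 0.721 ± 0.0155 in the brain translatome, without overlap (exact two-sided permutation test, p = 0.10).

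Of the other microtubule genes, 6 of 23 microtubule-associated proteins fell in the Emx1-lineage and none rose in edgeR. At an unadjusted p under 0.05, 4 were higher and 10 lower. Map6, a microtubule stabilizer, fell by 0.59 ± 0.06. Of 20 folding genes 3 were higher, led by Cct4 at 0.28 ± 0.04, and 3 were lower, led by Arl2 at -0.46 ± 0.06. Of 11 other tubulin genes tested 2 rose and 2 fell, where 9.2% of all rows were called higher and 12.8% lower. Tuba4a, an alpha-tubulin, rose from 5.06 to 10.6 RPKM (1.12 ± 0.09).

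Over the 7 groups, the 9 genes fell into the order of levels as follows. For Tuba1a the brain translatome (1686 ± 45.2 RPKM), the Emx1-lineage (1616 ± 68.3 RPKM) and the brain transcriptome (1492 ± 96.3 RPKM) formed a top in which neighbours overlapped, followed without overlap by brain EC (463 ± 80.5 RPKM) and the kidney groups. Tubb2a, Tubb2b, Tubb3 and Dcx had the same 3 groups on top and brain EC next. For Tubb6 the order was brain EC (172 ± 6.83 RPKM), kidney EC (139 ± 7.41 RPKM), the kidney translatome and transcriptome (51.4 ± 1.33 and 48.5 ± 1.98 RPKM, overlapping), the brain translatome (14.7 ± 1.10 RPKM), the brain transcriptome (9.75 ± 0.930 RPKM) and the Emx1-lineage (2.36 ± 0.238 RPKM). Tuba1b and Tubb4b were highest in the kidney transcriptome and lowest in the brain translatome.

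Genes with a similar profile were sought as a description, by Pearson's r of log2(RPKM + 1) over the 21 libraries among 11841 rows with a mean of at least 5 RPKM in some group. Since the libraries form 7 groups with brain far from kidney, many neural genes reach high values. Nearest to Dcx were Elavl4, Pcyt1b, Camk2b, Ralgps1 and Ctnnd2 (r = 0.995 to 0.997). Nearest to Tubb6 were Pros1, Tgfbr2, Ppic, Arpc1b and Ptrf (0.992 to 0.997). These names depended on the constant added before the logarithm. With 0.1 in place of 1, only Elavl4, Pcyt1b and Ralgps1 stayed among the 5 nearest to Dcx. Of those named for Tubb6, only Pros1 and Tgfbr2 stayed, and Rin3 came first. Among the 9 genes themselves r was 0.99 for Tuba1a with Tubb2b and for Tubb2b with Dcx, 0.89 for Tuba1b with Tubb4b and -0.90 for Tubb5 with Tubb6.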

How the data were processed

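Per the labels and the study's methods, the authors sequenced unstranded libraries, aligned reads to the mouse genome (GRCm38/mm10) with RUM and counted them per RefSeq gene. The deposited tables give raw read counts and the RPKM the authors derived from them. How reads matching several genes were divided is not given in the sources used here.

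Counts were tested with edgeR 4.0.16 (R 4.3.3; quasi-likelihood, TMM factors, rows with at least 1 read in the samples fitted, Benjamini-Hochberg adjustment over all rows, threshold 0.001), 6 libraries per comparison and 12 for the interaction. RPKM served for levels, shares and ratios. The genes, lists and tests were chosen with earlier results of these data known. Genes named from a list were among its 2 largest called changes in each direction, and markers were named where they stood beside a result. The genes nearest in profile to Tubb3 and Tubb5 are not reported here. Alternatives were DESeq2 1.42.0, RLE (DESeq-type) size factors, total counts, a filter of 10 counts in 3 samples, a replicate block, a lane term, 1 fit of all 21 libraries and leaving out each library. Sequencing lanes were taken from the study's supplementary information. The procedure was tested on simulated data.

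Same-numbered transcriptome and translatome libraries came from the same tissue samples. Their deviations from the group means correlated at 0.548, 0.479 and 0.49 in brain and 0.618, 0.545 and 0.585 in kidney. Those of the 2 EC groups correlated less, at 0.225, 0.171 and 0.161, beside 0.362, -0.063 and 0.171 between the brain and kidney transcriptomes. These numbers were taken as pairs, for the EC groups on weak correlations only. The SDs and SEs given describe the spread between replicate libraries, each from pooled organs, and not that between single embryos.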

Additional observations from a re-analysis of the deposited data

Results flagged for a closer look

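Differences between brain and kidney stood out in the following comparisons. With the tissue samples paired as a block, the change from transcriptome to translatome differed between the organs (brain minus kidney, log2, edgeR with Benjamini-Hochberg adjustment) for Tuba1a (0.46, adjusted p = 2.13e-06), Tubb2b (0.47, adjusted p = 1.15e-05), Tubb4b (0.37, adjusted p = 3.37e-05), Tubb5 (0.43, adjusted p = 2.28e-06) and Tubb6 (0.52, adjusted p = 1.85e-06), and in the other direction for Tubb3 (-1.72, adjusted p = 9.07e-07) and Dcx (-0.51, adjusted p = 2.16e-06). None of these passed in edgeR's unpaired fit of the 12 libraries, whereas DESeq2 without pairing called 5 genes higher, and unpaired edgeR fits with another scaling, with all 21 libraries or without 1 library called Tubb6 or Tubb3. Over all 20108 rows the paired fit called 1467 higher and 1978 lower, against 472 and 829 unpaired. The kidney translatome values of Tubb3 differed between libraries run in different sequencing lanes. No interaction fit held a lane term, so the part of the lane was not tested for any of these genes.

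Against the translatome of the organ, every endothelial library was lower in brain and higher in kidney for Tuba1a (-1.58 in brain, 0.59 in kidney) and for Tubb2a (-1.43 in brain, 1.07 in kidney). With total counts the kidney value of Tuba1a was 0.22 (adjusted p = 0.00735) and was not called, while Tubb2a was still called (0.70). This difference between the organs was not tested.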

How the results depend on the processing

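Of the fold changes of single genes, 956 kept their direction and side of the threshold under an alternative, 39 passed it newly, 42 no longer passed and 7 reversed. For the brain translatome against the transcriptome, 1 gene rather than 2 was higher with RLE size factors, total counts, the lane term, the fit of all 21 libraries and with any library left out (1 to 1). For the kidney translatome against the transcriptome, 1 gene was higher with DESeq2 and with the fit of all libraries, 2 with the replicate block, and 0 to 1 with a library left out (1 without translatome replicate 3). Lower were 4 with DESeq2 and 5 with the replicate block. The lane term, which rests on translatome replicate 3 alone, reversed Tubb3 (-0.30) and Dcx (-0.022). In the interaction, 5 genes were higher with DESeq2, 5 with the replicate block, 1 with RLE size factors, 1 in the fit of all libraries and 0 to 1 with a library left out, and 2 were lower with the block and 0 to 1 with a library left out. Over all rows the block raised the interaction calls from 472 to 1467 higher and from 829 to 1978 lower, and DESeq2 gave 1128 and 1581. For brain against kidney translatomes 3 genes were lower with total counts. For kidney EC, total counts left 2 genes higher and 3 lower and reversed Tuba1b (-0.014) and Tubb5 (-0.051), and 2 were lower in the fit of all libraries and 1 to 2 with a library left out. For brain against kidney EC, DESeq2 called 1 lower. Tuba1a in the Emx1-lineage ranged from -0.042 to 0.024 with a library left out. Except for total counts, whose shift of all rows is given with the results, the cause of these changes was not tested.

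Counted in reads and not per length, the share of Tubb5 was 53.9% in the brain transcriptome, 52.4% in the brain translatome, 64.8% in brain EC, 55.8% in the Emx1-lineage, 90.4% in the kidney transcriptome, 90.1% in the kidney translatome and 84.1% in kidney EC. The replicate block changed no member call beyond those named here and with the results, which include the loss of Tubb3 in the Emx1-lineage (adjusted p = 0.00334), where numbers do not pair samples. Reads of Tubb3 in kidney, 2 to 131 per library, limit its precision.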
